A study of Mus musculus with 8 samples.

Results

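The subunits of the mitochondrial respiratory chain that are encoded in the nucleus were examined in liver cells of mice that differ in Adar1. Members were taken by symbol: Nduf genes of the A, B, C, S and V series, Sdha to Sdhd, the Uqcr genes and all Atp5 genes. Cox4 to Cox8 genes were taken if a, b or c followed the number, which leaves out Cox4i1. Symbols containing -ps were left out, and at least 80 sense reads summed over the 8 libraries were required. This gave 78 members among 25229 gene symbols, with 38 in complex I, 4 in complex II, 8 in complex III, 11 in complex IV and 17 in complex V. The rule used symbols and summed reads and no measured difference between genotypes, but the set was chosen with earlier results of these data known. All 78 members also passed the filter on low counts. A further 6 symbols matched by name but fell under the minimum. Just inside it were Ndufb4c with 216 reads, Ndufa4l2 with 407, Cox7a1 with 722 and Ndufs5 with 757, and just outside it were Cox6b2 with 63 and Cox6a2 and Ndufa11b with 12 each.

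Respiratory complexes sit in the inner mitochondrial membrane. Complexes I and II take electrons from NADH and from succinate, complex III hands them on through cytochrome c, and complex IV passes them to oxygen. Complexes I, III and IV pump protons as they do so, and complex V, the ATP synthase, lets the protons flow back to make ATP. Most subunits are encoded in the nucleus and imported, a few core subunits come from mitochondrial DNA, and hepatocytes, which make glucose, urea and bile acids, are rich in all 5 complexes. Among the DNA-binding proteins known to act at the promoters of these nuclear genes are NRF1, the GABP complex (also called NRF2) and YY1.

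All mice were C57BL/6, were deficient in Ifih1 on both alleles (Ifih1-/-), the gene of the RNA sensor MDA5, and carried Alb-Cre, controls included. Alb-Cre drives Cre recombinase from the albumin promoter, so deletion is directed to hepatocytes and most other liver cells keep their alleles. The groups were Adar1 flox/flox (3 libraries), Adar1 wt/flox (2 libraries) and Adar1 wt/wt (3 libraries), from mice of 7, 9 and 11 weeks in flox/flox and wt/wt and of 9 and 11 weeks in wt/flox. For flox/flox a number of 2 is given in the design text, but 3 samples carry the genotype, and each was used. The design asks how loss of the RNA-editing enzyme ADAR1 in hepatocytes changes the transcriptome when MDA5 is absent.

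Sense gene reads per library ranged over 75875711 to 132303735. Adar itself was not lower in flox/flox, at 42.4 ± 6.74 CPM (SD, n = 3), against 26.9 ± 6.93 in wt/flox (n = 2) and 37.2 ± 14.2 in wt/wt (n = 3). The edgeR adjusted p for flox/flox against wt/wt was 0.626, but these are totals over the whole gene, and the labels do not say which exons are floxed. Ifih1 reads numbered 0 to 4 per library. Transcripts went against the labelled sex in the libraries labelled flox/flox replicate 1 (labelled female, 31 Xist and 21255 Y-linked reads) and flox/flox replicate 2 (labelled male, 246646 Xist and 0 Y-linked reads), so sex was not a term of the fit. The deposited tables of all flox/flox and wt/flox libraries carry a batch mark in their names that the wt/wt tables lack. Genotype and this mark therefore cannot be told apart in either comparison with wt/wt, and only flox/flox against wt/flox stays within 1 mark. That comparison still differs in sex and age. By label and by transcripts both wt/flox libraries were male, while flox/flox and wt/wt each held males and females, and wt/flox had no mouse of 7 weeks. Alignments to several places, which the authors tallied apart from gene counts, made up 3.92% to 4.98% in the marked libraries and 8.97% to 10.9% in wt/wt.

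Nearly the whole set was lower in flox/flox than in wt/wt. Of the 78 members 69 fell and 0 rose, while 14.7% of all 14728 genes tested fell and 15.1% rose (edgeR quasi-likelihood test, adjusted p under 0.05 over all genes). The median log2 fold change of the members was -0.95, against 0.02 over all genes tested, and single members ranged over -2.47 to 0.10. Fitted log2 fold changes were below 0 in 77 members (48.9% of all genes). Those that fell were 1.36-fold (Atp5b) to 5.55-fold (Atp5k) lower, with a median of 1.95-fold, and 33 members had a log2 fold change of -1 or less, as did 7.99% of all genes. Levels are given as CPM, TMM-scaled counts per 1e6 reads, and in 73 members every flox/flox library lay below every wt/wt library (22% of all genes). With the labelled sex as a term 66 members fell (12.5% of all genes), and with sex by transcripts 67 (14.6%). The members whose libraries overlapped were Ndufa4l2, Ndufa9, Ndufb4c, Sdha and Uqcrc2. In bulk samples, fewer cells of a type and less RNA per cell cannot be told apart.

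Summed over all members, levels came to 5132, 5231 and 4620.2 CPM for flox/flox, 6342 and 5422 CPM for wt/flox and 8122, 8891 and 7450.3 CPM for wt/wt. No library of one genotype overlapped with another genotype in this sum. The flox/flox mean of 4994 ± 328 CPM (SD, n = 3) was 61.2% of the wt/wt mean of 8154 ± 721 CPM (n = 3). The wt/flox mean of 5882 ± 650.1 CPM (n = 2) was 72.1% of it. Measured against wt/wt, the sum of complex II was the least reduced in flox/flox, at 73.9%, and that of complex IV the most, at 54.4%. Complexes I, III and V stood at 60.3%, 63.9% and 60.1%. Abundant members weigh most in a sum, and the order by median log2 fold change was another. There complex V was lowest (-1.04), and complex IV (-0.80) was less reduced than complexes I (-0.93) and III (-0.97).

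**Figure D1:**
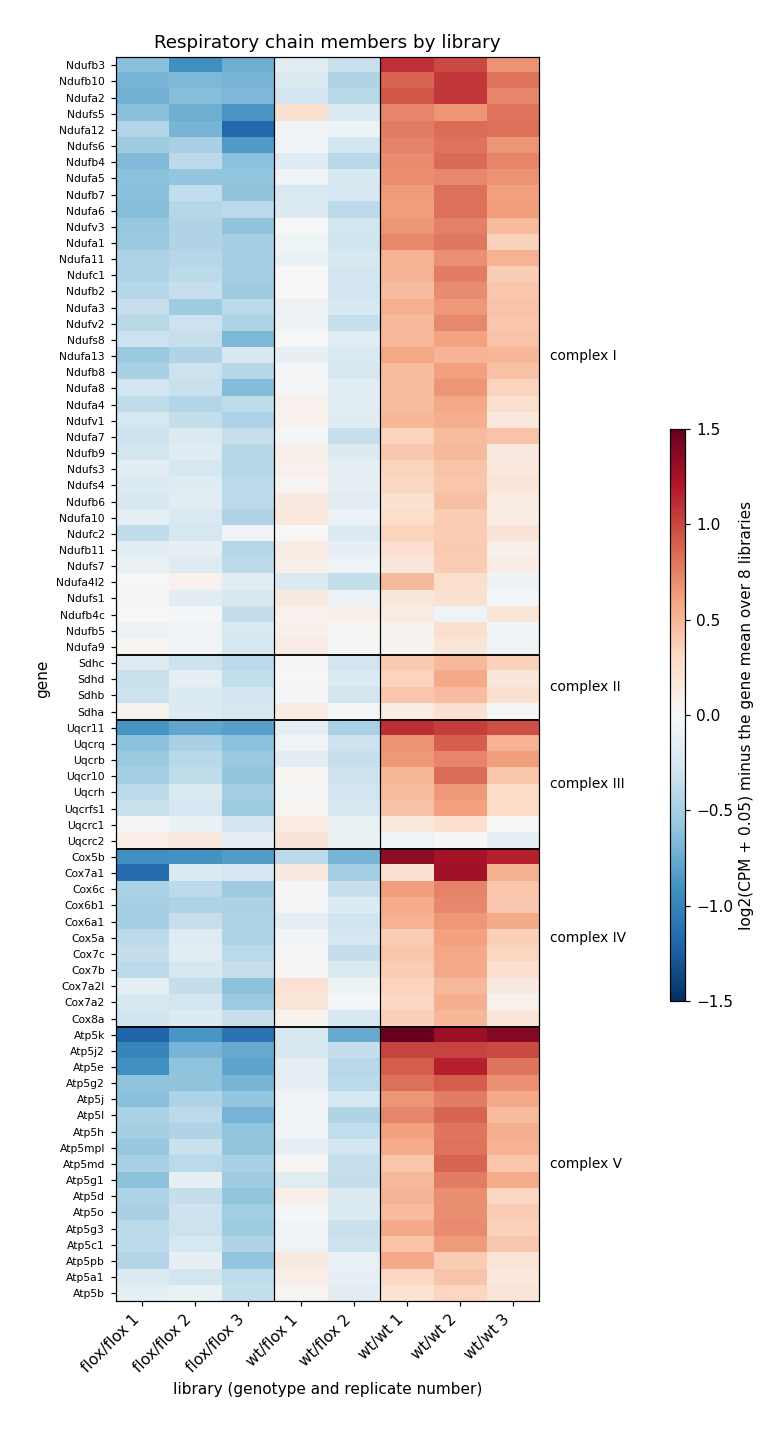
Log2(CPM + 0.05) of 77 of the 78 members in each library, minus the gene's mean over the 8 libraries; rows are genes grouped by complex and ordered by fold change, columns are libraries. The 3 flox/flox columns are blue, the 3 wt/wt columns red and the 2 wt/flox columns in between in most rows, with near-white rows at the foot of complexes I, II and III.

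The genotypes followed one order in most members. The mean CPM was lowest in flox/flox, intermediate in wt/flox and highest in wt/wt for 76 of 78 members, an order seen in 23.9% of all genes tested, and Ndufa4l2 and Uqcrc2 departed from it. In 47 members every flox/flox library was below every wt/flox library and every wt/flox library below every wt/wt library, against 6.11% of all genes. These members were 25 of 38 in complex I, 0 of 4 in complex II, 5 of 8 in complex III, 5 of 11 in complex IV and 12 of 17 in complex V. The order rests on 2 wt/flox libraries, and its step at wt/wt coincides with the batch mark.

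The promoters of 5 members are shown as examples: Atp5k, Cox5b and Uqcr11 led complexes V, IV and III, while Uqcrc1 and Sdha did not pass the test. Each runs 5′ to 3′ on the gene's strand over 300 bases, 250 before and 50 after the start, from RefSeq on GRCm38.p6. Capitals mark, on either strand, the letters GCGC on each side of a spacer of any 2 bases (NRF1), CCGGAAG (GABP) and AAGATGGC (YY1).
Atp5k (chr5:108434350-108434649, minus strand): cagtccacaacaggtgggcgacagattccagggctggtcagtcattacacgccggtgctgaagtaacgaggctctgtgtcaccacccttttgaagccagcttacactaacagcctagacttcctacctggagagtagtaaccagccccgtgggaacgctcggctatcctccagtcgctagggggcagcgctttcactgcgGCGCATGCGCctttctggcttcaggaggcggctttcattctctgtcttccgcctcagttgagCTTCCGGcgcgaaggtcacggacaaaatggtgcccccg
Cox5b (chr1:36691237-36691536, plus strand): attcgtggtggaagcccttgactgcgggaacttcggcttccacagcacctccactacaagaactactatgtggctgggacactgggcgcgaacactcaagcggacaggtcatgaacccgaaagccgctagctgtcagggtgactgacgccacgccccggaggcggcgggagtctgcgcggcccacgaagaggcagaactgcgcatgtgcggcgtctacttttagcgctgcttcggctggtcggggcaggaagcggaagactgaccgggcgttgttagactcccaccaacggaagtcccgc
Uqcr11 (chr10:80406772-80407071, minus strand): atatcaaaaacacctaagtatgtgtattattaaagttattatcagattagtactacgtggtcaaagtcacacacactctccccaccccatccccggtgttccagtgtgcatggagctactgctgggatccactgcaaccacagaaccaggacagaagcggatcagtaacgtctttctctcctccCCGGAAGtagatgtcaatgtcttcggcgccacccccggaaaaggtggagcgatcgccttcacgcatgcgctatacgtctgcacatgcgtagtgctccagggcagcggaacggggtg
Uqcrc1 (chr9:108936398-108936697, plus strand): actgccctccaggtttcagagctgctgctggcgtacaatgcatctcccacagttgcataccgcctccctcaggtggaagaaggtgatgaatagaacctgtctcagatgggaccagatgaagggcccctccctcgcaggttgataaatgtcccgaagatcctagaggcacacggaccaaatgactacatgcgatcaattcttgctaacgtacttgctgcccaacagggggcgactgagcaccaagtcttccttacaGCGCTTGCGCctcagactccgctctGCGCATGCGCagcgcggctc
Sdha (chr13:74350191-74350490, minus strand): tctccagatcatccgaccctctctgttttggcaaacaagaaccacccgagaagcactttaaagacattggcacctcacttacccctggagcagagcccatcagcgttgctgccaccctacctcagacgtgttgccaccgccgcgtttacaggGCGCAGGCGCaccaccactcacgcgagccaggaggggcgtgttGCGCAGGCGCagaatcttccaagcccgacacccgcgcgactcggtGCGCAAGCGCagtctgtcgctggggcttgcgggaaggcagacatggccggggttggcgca
Among these 5, the Atp5k promoter held 1 NRF1 and 1 GABP match and the Uqcr11 promoter 1 GABP match. The Cox5b promoter held none, the Uqcrc1 promoter 2 NRF1 matches and the Sdha promoter 3. The words thus occurred among members with large falls and among uncalled ones. Ndufb5 and Ndufa9, also uncalled and with smaller changes (log2 fold changes -0.21 and -0.15), held 0 NRF1 and 0 GABP matches. A match describes letters, not a bound site. Only these exact letters were searched, so a lack of matches does not mean that no related site is present.

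Promoters were found in the RefSeq table for 65 of the 78 members. The NRF1 letters were present in 18 of them (27.7%), against 14% of the tested genes in the table and 6.23% of all 32851 promoters. GABP letters were present in 17 (26.2%, against 18.5% and 8.86%) and YY1 letters in 10 (15.4%, against 4.86% and 2.75%). The GC box GGGCGG was found in 26 (40%, against 64.5% and 35.7%) and TATAAA in 6 (9.23%, against 9.65% and 13.6%). Either the NRF1 or the GABP letters occurred in 31 member promoters (47.7%), against 29.4% of 11491 tested genes. Words were counted on both strands whether or not they overlapped another word. A gene was counted if any of its listed promoters held the word, while the shares of all promoters count each promoter.

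Complex I, the NADH dehydrogenase, was lower in flox/flox in 33 of 38 members, with a median log2 fold change of -0.93 and falls of 1.37-fold (Ndufs7) to 3.23-fold (Ndufb3). Its core subunits carry the flavin and the iron-sulfur clusters. The 7 core subunits had a median log2 fold change of -0.59 and a summed level in flox/flox of 66.6% of that in wt/wt, and the 31 accessory subunits a median of -0.96 and a summed level of 57.6%. Ndufv1, the flavoprotein that binds NADH (chromosome 19, 4007384 to 4012806, GRCm38), was at 77.1, 72.5 and 67.5 CPM in the flox/flox libraries, 96 and 81.9 in wt/flox and 131, 135 and 104 in wt/wt. Every flox/flox value was below every wt/wt value, and the fall was 1.71-fold (log2 fold change -0.77, SE 0.14, adjusted p = 0.00594). Ndufs1, the largest core subunit with iron-sulfur clusters, was at 99.8, 90.3 and 86.0 CPM in flox/flox, 112 and 95.9 in wt/flox and 115, 119.6 and 101 in wt/wt. The flox/flox and wt/wt groups did not overlap, but the difference did not pass the test (log2 fold change -0.28, SE 0.12, adjusted p = 0.118).

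The accessory subunits with the most marked falls in complex I were Ndufb3, Ndufb10 and Ndufa2. Ndufb3, a small membrane arm subunit (chromosome 1, 58586384 to 58595964), was at 6.77, 5.52 and 6.28 CPM in flox/flox, 9.32 and 8.29 in wt/flox and 22.4, 20.8 and 16.7 in wt/wt. All 3 genotypes were separate, and flox/flox was lower than wt/wt by 3.23-fold (log2 fold change -1.69, SE 0.15, adjusted p = 0.000981). Ndufb10, another subunit of the membrane arm, was at 14.4, 14.6 and 14.3 CPM in flox/flox, 20.2 and 17.1 in wt/flox and 42.7, 48.8 and 40.7 in wt/wt. It fell 3.05-fold (SE of the log2 fold change 0.12, adjusted p = 0.000599), and its flox/flox libraries spread by only 0.149 CPM (SD). Ndufa2, an accessory subunit of the peripheral arm, fell 3.02-fold, with 12.8 ± 0.368 CPM in flox/flox against 38.6 ± 4.47 in wt/wt (SD, n = 3 each). At the other end, Ndufa9, an accessory subunit of the peripheral arm, was at 76.6, 72.4 and 62.5 CPM in flox/flox, 81.5 and 73.3 in wt/flox and 77.9, 84.9 and 71.7 in wt/wt. Its groups overlapped (log2 fold change -0.15, SE 0.12, adjusted p = 0.376). Ndufb5, of the membrane arm, averaged 50.5 ± 3.14 CPM in flox/flox against 58.5 ± 5.87 in wt/wt and was not called either (log2 fold change -0.21, adjusted p = 0.176).

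The complex I members Ndufs5, Ndufb4c and Ndufa4l2 need a reservation about identity or level. Ndufs5, an accessory subunit, had only 0.479 ± 0.0448 CPM in flox/flox against 1.43 ± 0.0767 in wt/wt (2.98-fold lower, adjusted p = 0.00452), while its pseudogene Ndufs5-ps was listed at 1.09 CPM in flox/flox, 1.41 in wt/flox and 0.627 in wt/wt. The mean of the gene was lower and that of its copy higher in flox/flox than in wt/wt, and the authors' counting may have split their reads, so Ndufs5 is uncertain. Ndufb4c, which GENCODE lists as a processed pseudogene and whose sequence is wholly shared with other transcripts at a length of 50 bases, was at 0.197 to 0.266 CPM in flox/flox and 0.254 to 0.310 in wt/wt. Ndufa4l2, a paralogue of Ndufa4 known from hypoxic cells, was at 0.425 to 0.509 CPM in flox/flox and 0.456 to 0.700 in wt/wt, and neither passed the test. Ndufa4 itself, grouped here by its symbol but known to be part of complex IV, fell 1.79-fold (adjusted p = 0.00341).

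Complex II, the succinate dehydrogenase, also works in the citric acid cycle and has 4 members, all encoded in the nucleus. Of these 3 fell and Sdha did not pass the test. Sdha, the flavoprotein that oxidises succinate (chromosome 13, 74322254 to 74350280), was at 395, 329 and 316 CPM in flox/flox, 412 and 376 in wt/flox and 411, 447 and 372 in wt/wt. The groups overlapped (log2 fold change -0.24, SE 0.14, adjusted p = 0.222). Sdhb, the iron-sulfur subunit, was at 78.8, 85.2 and 80.3 CPM in flox/flox, 96.4 and 81.2 in wt/flox and 131, 136 and 116 in wt/wt. Between flox/flox and wt/wt there was no overlap, and Sdhb fell 1.57-fold (log2 fold change -0.65, SE 0.12, adjusted p = 0.00604), while its lower wt/flox library lay within the flox/flox range. The membrane anchors Sdhc and Sdhd fell 1.64-fold (72.3 ± 5.35 CPM in flox/flox against 119 ± 5.86 in wt/wt) and 1.57-fold (97.2 ± 8.11 CPM in flox/flox against 153 ± 21.2 in wt/wt). Sdha made up 55.6% to 61.2% of the complex II level in flox/flox, 57.8% to 59.4% in wt/flox and 50.6% to 50.8% in wt/wt, a share that does not depend on the scaling of the libraries.

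Complex III, the cytochrome bc1 complex, had 6 of 8 members lower, with a median log2 fold change of -0.97. All 5 accessory subunits fell (median -1.18), while Uqcrfs1 was the only one of the 3 core proteins among the members to do so. Cyc1, a further core protein, has a symbol outside the rule and is given with the other respiratory genes. Uqcr11, a small accessory subunit, whose promoter is printed above (gene on chromosome 10, 80402997 to 80406830), was at 20.7, 22.4 and 21.8 CPM in flox/flox, 34.6 and 27.5 in wt/flox and 82.6, 78.8 and 75.4 in wt/wt. The genotypes were separate throughout, with a fall of 3.65-fold (log2 fold change -1.87, SE 0.12, adjusted p = 0.000599). Uqcrq and Uqcrb, accessory subunits near the quinone sites, fell 2.42-fold and 2.26-fold. Uqcrfs1, the Rieske iron-sulfur protein that passes electrons to cytochrome c1, was at 96.4, 102 and 83.8 CPM in flox/flox, 125 and 103 in wt/flox and 165, 187 and 149 in wt/wt. It fell 1.78-fold (adjusted p = 0.0051), and no flox/flox library reached the lowest wt/wt library.

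The large core proteins of complex III stood apart from its small subunits. Uqcrc1 was at 168, 159 and 139.7 CPM in flox/flox, 185 and 158 in wt/flox and 189.6, 200.4 and 169 in wt/wt. The flox/flox and wt/wt ranges all but met, and the difference was not called (log2 fold change -0.26, SE 0.13, adjusted p = 0.169). Uqcrc2 (chromosome 7, 120635176 to 120659524) was at 195, 201 and 165 CPM in flox/flox, 208 and 171 in wt/flox and 174, 184 and 165 in wt/wt. Its groups overlapped and it was the only member with a fitted fold change above 0 (log2 fold change 0.10, SE 0.13, adjusted p = 0.6), which turned to -0.24 when libraries were scaled by size alone. Of the complex III level, Uqcrc2 took 28.3% to 29.7% in flox/flox, 25.6% to 26% in wt/flox and 16.8% to 18.1% in wt/wt, with no overlap between genotypes. Uqcrc1 took 23.4% to 25.5% in flox/flox, 23.1% to 23.7% in wt/flox and 18.3% to 19.0% in wt/wt.

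Complex IV, the cytochrome c oxidase, had 10 of 11 members lower (median log2 fold change -0.80). Cox4i1, a further subunit, has a symbol outside the rule and is not part of these counts, sums and shares. It was at 160 CPM in flox/flox against 235 in wt/wt (log2 fold change -0.55, edgeR adjusted p = 0.0177). Cox5b, a subunit that binds zinc on the matrix side (chromosome 1, 36691449 to 36693681), was at 14.6, 14.8 and 15.5 CPM in flox/flox, 21.1 and 17.1 in wt/flox and 70.4, 66.0 and 62.6 in wt/wt. The 3 wt/wt values were far above all 5 others, which lay close together. The fall in flox/flox was 4.43-fold (log2 fold change -2.15, SE 0.12, adjusted p = 0.000599), and in wt/flox Cox5b was 3.48-fold lower than in wt/wt (adjusted p = 0.00833). Cox5b made up 2.51% to 2.94% of the complex IV level in flox/flox, 2.79% to 2.88% in wt/flox and 5.82% to 6.91% in wt/wt. Of its 50-base words, 25.9% occur in other transcripts, so some of its reads may have been tallied as aligning to several places. Cox6c, a single-pass membrane subunit, fell 2.10-fold, with 65.3 ± 3.20 CPM in flox/flox against 137 ± 15.9 in wt/wt.

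Several subunits of complex IV exist as tissue isoforms, and the liver forms carried nearly all reads. Cox6a1, the liver form, was at 44.0, 49.4 and 45.2 CPM in flox/flox, 56.7 and 50.9 in wt/flox and 89.6, 98.4 and 93.0 in wt/wt. It fell 2.03-fold without overlap (adjusted p = 0.00125), while its heart and muscle counterpart Cox6a2 had 0 to 5 reads in a library. Cox6b1 fell 2.06-fold, with 50.5 ± 0.640 CPM in flox/flox against 104 ± 11.3 in wt/wt, and Cox6b2, the testis form, had 5 to 12 reads. Cox7a2, the liver form, was at 69.9, 67.9 and 56.5 CPM in flox/flox, 93.7 and 81.4 in wt/flox and 102, 121 and 86.6 in wt/wt. Here wt/flox overlapped with wt/wt and flox/flox did not (1.60-fold lower, adjusted p = 0.0151). Cox7a1, the heart and muscle form, was at 0.311, 0.643 and 0.622 CPM in flox/flox, 0.831 and 0.511 in wt/flox and 0.893, 1.89 and 1.11 in wt/wt. Its spread was wide, and the log2 fold change of -1.30 (SE 0.43) missed the threshold with an adjusted p of 0.053. Cox7a2l, a relative known for binding respiratory supercomplexes, fell 1.60-fold, Cox7b 1.66-fold and Cox8a 1.55-fold. Cox7b2 and Cox8c had no read, and Cox8b had 5 in all 8 libraries.

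Complex V, the ATP synthase, was lower in all 17 members, with a median log2 fold change of -1.04. Its F1 head makes ATP, its ring of c subunits turns with the proton flow, and a peripheral stalk and small membrane subunits hold the enzyme together. Atp5b, the catalytic beta subunit (chromosome 10, 128083273 to 128090391), had the highest level per transcript length of all members, at 369 CPM per kb in flox/flox, 407 in wt/flox and 500.1 in wt/wt. It was at 732, 757 and 632 CPM in flox/flox, 834 and 725 in wt/flox and 936, 1017 and 922 in wt/wt. The flox/flox and wt/wt libraries did not overlap, and the fall of 1.36-fold was the smallest among the called members (log2 fold change -0.44, SE 0.13, adjusted p = 0.0413). Atp5a1, the alpha subunit, was at 547, 521 and 482 CPM in flox/flox, 672 and 578 in wt/flox and 778, 846 and 702 in wt/wt, a fall of 1.5-fold without overlap (adjusted p = 0.0152). Atp5c1, the gamma subunit that forms the rotor shaft, fell 1.82-fold. Atp5e, the small epsilon subunit of the same head, was at 24.6, 30.8 and 26.9 CPM in flox/flox, 42.6 and 35.0 in wt/flox and 87.5, 104 and 81.3 in wt/wt. Its fall of 3.32-fold (adjusted p = 0.000869) exceeded those of the alpha, beta and gamma subunits.

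The c subunit of the ring is encoded by Atp5g1, Atp5g2 and Atp5g3, which give one mature protein. Atp5g3 was at 109, 115 and 98.8 CPM in flox/flox, 139 and 114 in wt/flox and 213, 234 and 183 in wt/wt, which is 1.95-fold lower in flox/flox (adjusted p = 0.00328). Atp5g1 was 2.04-fold lower, with 52.9 ± 9.64 CPM in flox/flox against 108 ± 11.4 in wt/wt. Atp5g2 was 2.73-fold lower, with 16.7 ± 0.587 CPM in flox/flox against 45.5 ± 3.62 in wt/wt, but 87.4% of its 50-base words occur elsewhere, so its level is uncertain. In CPM, Atp5g3 made up 58.6% to 63.5% of the total of these genes in flox/flox, 60.5% to 61.7% in wt/flox and 55.7% to 59.5% in wt/wt. All 4 peripheral stalk genes (Atp5h, Atp5j, Atp5o and Atp5pb) fell, by 1.69-fold to 2.33-fold.

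The small membrane subunits of complex V had the lowest median of any role, -1.22, and all 5 fell. Atp5k, the e subunit, which helps the enzyme to pair into dimers, was at 1.82, 2.30 and 1.94 CPM in flox/flox, 3.59 and 2.5 in wt/flox and 12.1, 10.4 and 11.1 in wt/wt. All genotypes were separate, and Atp5k had the largest fall of the 78 members, 5.55-fold (chromosome 5, 108433244 to 108434448, log2 fold change -2.47, SE 0.18, adjusted p = 0.000608). Atp5j2, the f subunit, was at 12, 14.7 and 14.2 CPM in flox/flox, 20.2 and 18.6 in wt/flox and 48.4, 48.3 and 47.6 in wt/wt. It fell 3.53-fold (adjusted p = 0.000599), and its wt/wt libraries differed by less than 1 CPM.

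**Figure D2:**
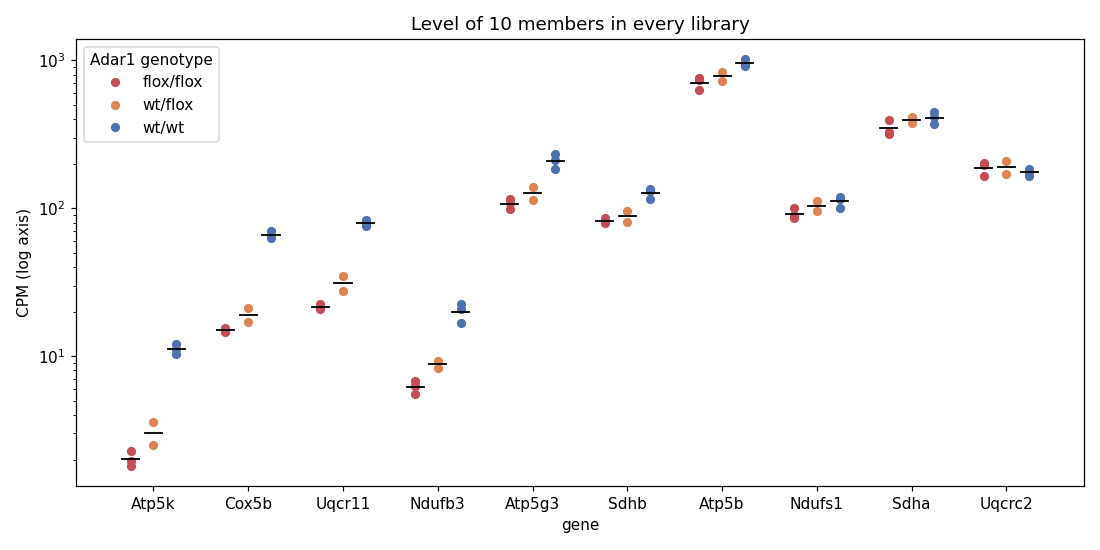
CPM (log axis) of 10 members in each library; points are libraries coloured by genotype and short bars are group means. Atp5k, Cox5b, Uqcr11 and Ndufb3 show flox/flox and wt/flox well below wt/wt, while the groups of Sdha and Uqcrc2 overlap.

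Fold changes in flox/flox against wt/wt varied with coding length among the members and among other genes. Over the 77 members with a coding sequence in the annotation, the log2 fold change rose with log10 coding length (Pearson r = 0.54, Spearman rho = 0.53, a description across genes of the same 8 libraries). The 24 members with coding sequences of 300 to 450 bases had a median log2 fold change of -1.18, and all 24 fell; among the 619 other protein-coding genes of that size the median was -0.66 and 49.1% fell. Below 300 bases the medians were -1.06 for the 22 members, of which 20 fell, and -0.84 for other genes, of which 53.6% fell. At 450 to 600 bases the 11 members had a median of -0.71 with 10 lower, and other genes -0.50 with 38.2% lower. At 600 to 1000 bases the 9 members had a median of -0.83 and all were lower, and other genes had -0.28 with 24.6% lower. At 1000 to 1500 bases the 7 members had a median of -0.52 with 4 lower, and other genes -0.04 with 13.2% lower. Above 1500 bases the 4 members had a median of -0.36 with 2 lower, and the other genes a median of 0.22 with 4.55% lower. The medians of other genes rose from class to class and those of the members did not do so steadily, but in each of the 6 classes the members' median was below that of other genes. Of the 9 uncalled members, Ndufs1, Sdha, Uqcrc1, Uqcrc2 and Ndufa9 have coding sequences of over 1000 bases, as do 6 called members. Of the other uncalled members, Ndufb5 has one of 567 bases, Ndufa4l2 one of 261 and Cox7a1 one of 240, and Ndufb4c has none.

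Removing each library's smooth trend with transcript length lowered the counts. With the trend over exon length removed, 47 members fell (8.98% of 14578 genes with a length) and the median was -0.68. With the trend over the length of the principal mRNA removed, an alternative chosen after seeing the data, 39 fell (8.01%) and the median was -0.57. All of these were among the 69, and by complex the 39 were 19 of 38, 1 of 4, 3 of 8, 4 of 11 and 12 of 17 for complexes I to V. Cox5b, Atp5k, Atp5j2 and Uqcr11 stayed called in that fit, with log2 fold changes of -1.73, -2.02, -1.44 and -1.37. Atp5a1 lost the call with little change in fold (log2 fold change -0.57, adjusted p = 0.0527), and Uqcrfs1 narrowly (-0.59, adjusted p = 0.0504). Atp5b (-0.36, adjusted p = 0.168) and Sdhb (-0.33, adjusted p = 0.137) lost it too.

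**Figure D3:**
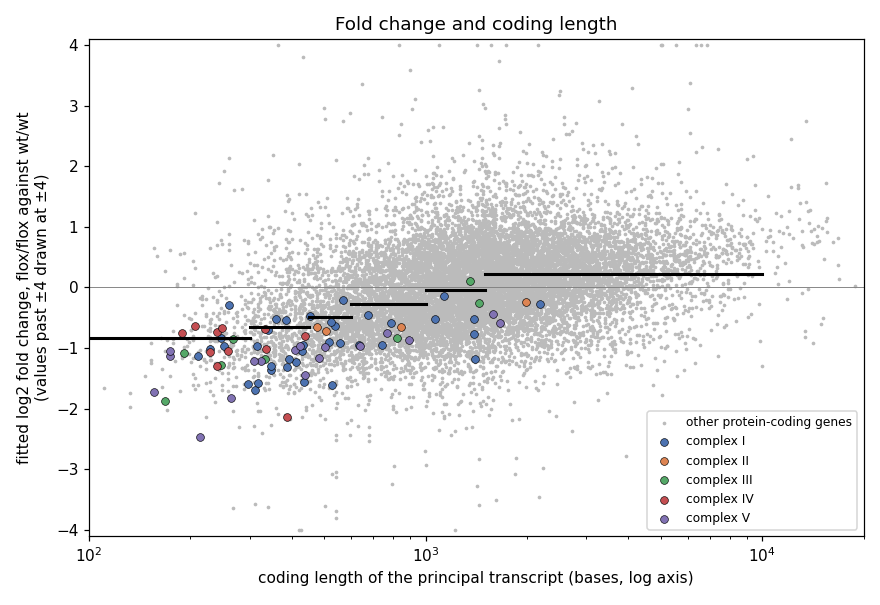
Fitted log2 fold change of flox/flox against wt/wt by coding length (log axis, bases); grey points are other protein-coding genes, coloured points the members by complex, and black bars the medians of the other genes in 6 length classes. The black bars climb with length, and most members lie below the bar of their class.

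Sequence shared with other transcripts was examined as well, since reads aligning to several places were tallied apart. Of the 22 members with at least 10% of their 50-base words shared, 21 fell (median -1.06), and of the 39 with none shared, 31 fell (median -0.84). Of other loci named after members, Cox7c-ps1 averaged 0.530 CPM in flox/flox, 0.302 in wt/flox and 0.135 in wt/wt, beside 82.7 CPM of Cox7c itself in flox/flox. Ndufa11b, which holds 7.86% of the 50-base words of Ndufa11, stayed at or below 0.0444 CPM in every library.

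Within the batch mark, flox/flox against wt/flox called 0 members and 0 of all 14728 genes by edgeR (0% in either direction), with a smallest adjusted p of 0.558. Of simulated 2-fold changes in this comparison 10.4% were called, so 0 calls does not mean equal levels. At an unadjusted p under 0.05, 24 members were lower, against 3.85% of all genes, and 1240 genes passed in either direction. The fitted log2 fold change was below 0 in 77 of 78 members (45.5% of all genes), with a median of -0.28 against 0.04 over all genes. With the labelled sex as a term the median was -0.17, against 0.018 over all genes. With sex by transcripts it was -0.23, against 0.001, and 0 members were called in either fit. In 53 members every flox/flox library lay below both wt/flox libraries (13.1% of all genes). DESeq2 called 28 genes lower (0.19%), 2 of them members, Atp5j2 (log2 fold change -0.54, SE 0.145, adjusted p = 0.0445) and Ndufa5 (-0.48, SE 0.13, adjusted p = 0.0445), and limma-voom called none. Ndufa5, an accessory subunit of the peripheral arm of complex I, was at 9.30, 9.52 and 9.48 CPM in flox/flox and 13.7 and 12.1 in wt/flox, with 23.1, 23.5 and 22.8 in wt/wt. Both it and Atp5j2 were without overlap, and the third of the smallest p-values in edgeR belonged to Uqcr11 (log2 fold change -0.52, SE 0.13, unadjusted p = 0.00335, adjusted p = 0.558).

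In wt/flox against wt/wt 47 members fell and 0 rose, against 5.89% and 6.58% of all genes, with a median log2 fold change of -0.66 (-0.06 over all genes). Fold changes were below 0 in 77 members (54.2% of all genes), and in 66 both wt/flox libraries lay below every wt/wt library (29.3%). This comparison uses the same wt/wt libraries as flox/flox against wt/wt and crosses the same batch mark. By complex 21 of 38, 2 of 4, 5 of 8, 6 of 11 and 13 of 17 members fell in complexes I to V, and the medians were -0.62, -0.50, -0.68, -0.63 and -0.82. Atp5k was 3.68-fold lower in wt/flox than in wt/wt, Cox5b 3.48-fold, Uqcr11 2.55-fold, Atp5j2 2.48-fold and Ndufa2 2.41-fold. Uqcrc2, Ndufa9 and Sdha had log2 fold changes of 0.12, -0.01 and -0.06 and were not called. The count hung on single libraries and on length: it was 0 without either wt/flox library (1 library was then left, assumed to vary like the other groups), 20 without wt/wt replicate 1 (1.34% of genes) and 6 without wt/wt replicate 2 (0.184%), 3 with the exon length trend removed (0.151% of genes) and 1 with the mRNA length trend removed (0.0206%).

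**Figure D4:**
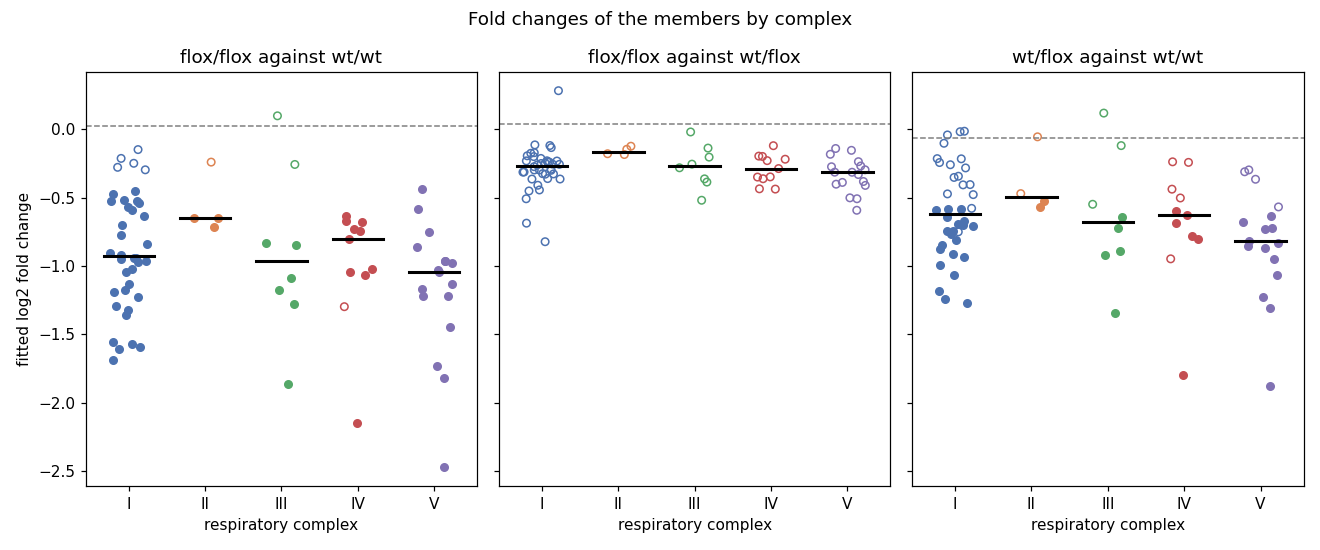
Fitted log2 fold change of each member by complex in the 3 comparisons; filled points passed an adjusted p of 0.05 by edgeR, open points did not, black bars are medians over the members of a complex and the dashed line is the median over all genes tested. Points of flox/flox against wt/flox are all open and, with 1 exception, below 0.

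Other genes of the respiratory system were read from lists, all in flox/flox against wt/wt, where 14.7% of all genes fell and 15.1% rose. Of 6 tested respiratory genes named by other rules 5 fell (median -0.83), the sixth being the member Ndufa4l2, and they include Cycs, which encodes cytochrome c (2.30-fold lower), Cyc1, which encodes cytochrome c1 of complex III (1.57-fold), and Ndufab1, the mitochondrial acyl carrier protein (2.44-fold). Assembly factors of complex I had 8 of 17 lower and 0 higher (median -0.52), among them Ndufaf8 with 2.88 CPM in flox/flox against 8.61 in wt/wt, Tmem126a (1.77-fold lower) and Dmac1 (2.21-fold lower). Assembly factors of complexes II to V had 16 of 34 lower and 1 higher (median -0.47). Among them Fmc1, needed for ATP synthase assembly, fell 2.97-fold, Uqcc2, needed for complex III, 2.53-fold and Sdhaf4, which acts on Sdha, 2.28-fold, while Ttc19, linked to complex III turnover, rose 1.58-fold but was not called when libraries were scaled by size alone (adjusted p = 0.168).

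Lists of neighbouring mitochondrial pathways and of regulators were counted in the same way, beside the same 14.7% of all genes lower and 15.1% higher. In the citric acid cycle and pyruvate dehydrogenase list 8 of 22 genes fell and 1 rose (median -0.33), with Suclg1, a subunit of succinate-CoA ligase, 1.68-fold lower, Idh3b, a subunit of isocitrate dehydrogenase, 1.63-fold lower, Pdk2, a kinase that inhibits pyruvate dehydrogenase, 1.73-fold lower and Pcx, which encodes pyruvate carboxylase, 1.43-fold higher, a call also lost with library size alone (adjusted p = 0.299). Of 27 genes of mitochondrial protein import 16 fell and 0 rose (median -0.63), among them the small proteins Timm8b (3.23-fold), Tomm7 (3.11-fold) and Timm13 (2.52-fold). Of 18 transcriptional regulators of respiration 1 fell and 0 rose (median 0.20). The one that fell was Tefm, the mitochondrial transcription elongation factor (1.58-fold lower). Gabpb1 and Gabpb2, beta subunits of GABP, had log2 fold changes of 0.32 and 0.38 and were not called (adjusted p = 0.0851 and 0.0709). Nrf1 was at 12.3 CPM in flox/flox against 9.81 in wt/wt, and Gabpa at 45.4 CPM in flox/flox against 53.1 in wt/wt. Yy1 was at 54.2 CPM in flox/flox against 62.6 in wt/wt, and Ppargc1a, the coactivator PGC-1alpha, at 31.3 CPM in flox/flox against 16.5 in wt/wt. None of these 4 passed the test. These lists differ in transcript length too. Median mRNA lengths were 1227 bases for the other respiratory genes, 1573 for complex I assembly factors and 1851.5 for those of complexes II to V. They were 1615 for import, 2590 for the citric acid cycle list and 3535 for the regulators, beside 823.5 for the members.

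Markers of other cell types were measured beside these results. Calls are for flox/flox against wt/wt, where 14.7% of all genes fell and 15.1% rose. The 8 hepatocyte markers summed to 130299 to 200607 CPM in flox/flox, 115345 to 133125 in wt/flox and 87117 to 102602 in wt/wt, and 2 of them rose in flox/flox. The 8 markers of sinusoidal endothelium summed to 64.3 to 137 CPM in flox/flox, 74.5 to 84.3 in wt/flox and 152 to 242 in wt/wt, and 5 of them fell. Kupffer cell markers summed to 17.7 to 61.1 CPM in flox/flox, 19.0 to 19.5 in wt/flox and 35.2 to 155 in wt/wt, with wt/wt replicate 3 highest, and 0 of 8 were called. The 5 erythroid markers summed to 48.5, 5.61 and 8.83 CPM in flox/flox, 98.2 and 80.6 in wt/flox and 103, 93.9 and 7.67 in wt/wt, varying widely within flox/flox and within wt/wt, and among them Hba-a1 and Hbb-bs had no read. Muscle markers summed to 0.633 to 1.19 CPM in flox/flox, 0.386 to 0.511 in wt/flox and 0.292 to 0.355 in wt/wt. The 1 muscle marker tested rose in flox/flox. Brown adipocyte markers summed to at most 0.0819 CPM in any library, and 0 of them were tested. The part of these shifts and of the batch mark in the lower levels of respiratory chain genes was not tested. Length was described by classes and by removing its trend, as given above, and its part as a cause was not tested.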

How the data were processed

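RNA of liver cells was sequenced after depletion of ribosomal RNA with a strand-specific protocol, per the labels' protocols. The cells came from collagenase-perfused livers, with red cells lysed and live cells recovered on a Percoll gradient. Each library has 1 deposited table of raw counts, in which every gene symbol has 1 column of sense and 1 of antisense reads, per the file headers. GRCm38 (mm10) and DESeq2 are named in the submitters' processing notes. Which aligner, counter and annotation were used is not given in the sources used here. Rows that name no gene were left out: reads in no gene were 31.7% to 40.0% of sense reads in flox/flox and wt/flox and 22.2% to 28.1% in wt/wt.

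Sense counts were tested with edgeR 4.0.16 in R 4.3.3 (quasi-likelihood F test, TMM, filterByExpr, two-sided, Benjamini-Hochberg over all 14728 genes, threshold 0.05). All 8 libraries entered 1 fit with genotype only. An SE is the log2 fold change over the square root of F. CPM uses TMM-adjusted library sizes. Coordinates and lengths are from GENCODE M21 (GRCm38), which matched 24707 of 25229 symbols (97.9%), and promoters from RefSeq. Sex was not a term because transcripts went against 2 labels. Samples bear different ages or sexes within a genotype and were taken as separate mice; no pair of replicates agreed within sampling noise. The code was tested on simulated counts. DESeq2 1.42.0, limma-voom (limma 3.58.1), other scalings, filters, sex terms, the replicate number as a block, each library left out, added antisense reads and length trends (loess span 0.3) were the alternatives.

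The members and lists were chosen with earlier results of these data known. Members named in full were the 3 called members of largest and the 2 of smallest change in complexes I, III, IV and V, all of complex II, core subunits, isoform sets and the 3 smallest p-values of each further comparison. The values of 1 member are not reported here. List genes named were the 3 of smallest p, and Cox4i1 was added after its values were seen. Ndufs7, Ndufa4, Ndufa4l2, Ndufb4c, Ndufs5, the peripheral stalk genes, Ttc19, Pcx, Cox7c-ps1, Ndufa11b, Nrf1, Gabpa, Yy1 and Ppargc1a were named after their values were seen, and the shares within complexes and the order of the genotypes were computed after seeing the data.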

Additional observations from a re-analysis of the deposited data

Results flagged for a closer look

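Antisense reads of the members were not part of the comparisons. They amounted to 7.35% to 7.73% of the members' sense level in flox/flox, 6.12% to 7.03% in wt/flox and 6.92% to 7.27% in wt/wt. Antisense reads of Ndufb4c were above every wt/wt library in both wt/flox libraries, at 0.0284 and 0.0351 CPM in wt/flox and 0 to 0.00913 in wt/wt, which is near the level of single reads. Antisense reads of Ndufc2, an accessory subunit of complex I, likewise ranged over 3.65 to 4.05 CPM in wt/flox and 3.35 to 3.62 in wt/wt. These 2 of 78 members compare with 17.9% of all genes whose antisense reads were higher in both wt/flox libraries than in every wt/wt library. In flox/flox 0 of 78 members met this, against 21.5% of all genes.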

How the results depend on the processing

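Across the 23 alternatives and left-out libraries tried, 0 members rose in any comparison. For flox/flox against wt/wt the count of lower members was 58 to 68 with 1 library left out (7.89% to 16.1% of genes tested). It was 39 with the mRNA length trend removed (8.01%). The members' median log2 fold change of -0.95 became -1.28 with library size alone, -0.68 with the exon length trend removed and -0.57 with the mRNA length trend removed, and ranged over -1.0 to -0.87 with 1 library left out. Library size alone also shifted the median of all genes to -0.31 and made 84.6% of all calls lower, against 49.3% with TMM, so that members stood 0.97 below all genes either way. For flox/flox against wt/flox the count was 2 with DESeq2 and 0 otherwise, and the median ranged over -0.38 to -0.17 with 1 library left out. For wt/flox against wt/wt the count was 72 with library size alone (21.8% of genes tested lower, median of all genes -0.42, 92.0% of calls lower, against 47.3% with TMM), 3 and 1 with the exon and mRNA length trends removed, and 0 to 48 with 1 library left out. Its median was -1.01, -0.34 and -0.23 under those 3 settings and -0.77 to -0.54 with 1 library left out; the cause of these moves was not tested, except that fewer libraries remained where 1 was left out. Without the 2 libraries of contradicted sex, the members' median in flox/flox against wt/wt was -1.03, against 0.02 over all genes. In that fit 1 flox/flox library was left, assumed to vary like the others. With the labelled sex and with sex by transcripts as a term, 66 and 67 members fell (12.5% and 14.6% of all genes).

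Replicate numbers coincide with age. Same-numbered flox/flox and wt/wt libraries correlated at 0.291, 0.0185 and 0.451, and differently numbered ones at -0.482 to 0.344. The numbers were not taken as pairs, which these values do not settle, and the replicate number was tried as a block. With the replicate block 68 members fell in flox/flox against wt/wt (median -0.95), 0 in flox/flox against wt/flox (median -0.23) and 43 in wt/flox against wt/wt (median -0.70). Among fold changes of single named members, 906 kept their call or stayed uncalled, 49 lost the call, 10 gained it and 0 called ones reversed. Uncalled ones could change sign, as Ndufa9 did in flox/flox against wt/wt with the mRNA length trend removed (log2 fold change 0.07). Depth limits chiefly Ndufb4c, Ndufa4l2, Cox7a1 and Ndufs5, with 216 to 757 reads over 8 libraries.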
